A study of Mus musculus with 9 samples.

Results

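The insulin-like growth factor (IGF) axis was followed through 10 genes in cells sorted from differentiating mouse embryonic stem cells. They are the ligand gene Igf2, the receptor genes Igf1r and Igf2r, and the genes Igfbp1 to Igfbp7 of the IGF-binding proteins. Each was taken as the probe set whose only gene symbol in the platform annotation is that gene, and all 10 were found among the 22180 genes measured, with 1 such probe set each. The stem cells carried a transgene in which the promoter of Afp, the alpha-fetoprotein gene, drives green fluorescent protein. They were differentiated in serum-containing medium as embryoid bodies, aggregates that form derivatives of the germ layers, which attached and spread on gelatin. Cells positive for the reporter were isolated by flow cytometry at days 4, 7 and 21, and each day is represented by 3 arrays. All 3 groups share the line, the medium and the sorting marker, and no unsorted or reporter-negative cells were analysed here.

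IGF2 is a fetal growth factor that signals through the tyrosine kinase receptor encoded by Igf1r and through the insulin receptor. The receptor encoded by Igf2r, which also carries mannose 6-phosphate-tagged enzymes to lysosomes, takes IGF2 up for degradation. IGFBP1 to IGFBP6 bind IGFs with high affinity and hold them in the circulation or in the matrix, and IGFBP7 is a related protein of low IGF affinity. In the mouse Igf2 is expressed from the paternal allele and Igf2r mainly from the maternal allele, and yolk sac and fetal liver are known sources of IGF2.

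The promoters of 4 binding-protein genes are shown because these genes mark the patterns described below. Igfbp1, Igfbp5 and Igfbp7 showed the largest rises among the members, and Igfbp4 was low at day 7. Igfbp3, whose window is not shown, was low at day 7 too and fell more from day 4 (-1.43 against -0.81 on the log2 scale). Each sequence is the 250 bases before a start site in the RefSeq table for GRCm38.p6, written 5′ to 3′ on the strand of the gene. That table held windows for all 10 members. Capitals mark matches on either strand to the TATA box hexamer TATAAA. They also mark CAAAACAA, a sequence of insulin response elements. The forkhead core GTAAACA and, from HNF1 sites, GTTAAT are marked likewise. The GC box GGGCGG and the E-box CANNTG were searched too and are left unmarked because they are common. No marked match overlapped another in these windows.
Igfbp1, chr11:7197537-7197786 on the plus strand: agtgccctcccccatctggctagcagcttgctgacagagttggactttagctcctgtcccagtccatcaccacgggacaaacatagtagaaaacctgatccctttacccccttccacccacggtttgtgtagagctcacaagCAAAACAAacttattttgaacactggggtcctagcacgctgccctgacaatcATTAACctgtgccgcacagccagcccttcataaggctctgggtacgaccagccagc
Igfbp5, chr1:72874866-72875115 on the minus strand: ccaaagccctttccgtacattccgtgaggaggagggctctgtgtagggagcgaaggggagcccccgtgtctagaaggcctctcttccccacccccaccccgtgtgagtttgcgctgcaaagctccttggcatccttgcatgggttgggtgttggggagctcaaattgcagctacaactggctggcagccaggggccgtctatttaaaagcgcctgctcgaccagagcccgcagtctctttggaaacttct
Igfbp7, chr5:77408046-77408295 on the minus strand: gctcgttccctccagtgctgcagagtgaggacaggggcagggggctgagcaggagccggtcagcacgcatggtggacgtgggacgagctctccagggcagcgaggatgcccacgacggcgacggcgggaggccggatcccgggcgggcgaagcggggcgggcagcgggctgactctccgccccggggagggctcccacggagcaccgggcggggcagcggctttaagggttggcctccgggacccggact
Igfbp4, chr11:99040994-99041243 on the plus strand: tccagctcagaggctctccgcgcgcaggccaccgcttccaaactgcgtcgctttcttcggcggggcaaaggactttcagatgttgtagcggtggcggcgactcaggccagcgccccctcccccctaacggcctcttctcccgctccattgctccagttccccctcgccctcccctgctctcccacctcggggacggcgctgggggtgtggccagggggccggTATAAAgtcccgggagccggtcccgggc
The Igfbp1 window held CAAAACAA at bases -108 to -101 from the start site and GTTAAT on the opposite strand at bases -56 to -51. Of 32851 windows of this length in the table, 2.21% held CAAAACAA and 6.43% held GTTAAT, and among the 14 windows of the members the Igfbp1 window was the only match to either. TATAAA stood in the Igfbp4 window at bases -28 to -23. On either strand it matched in 2 of the 14 member windows, those of Igfbp4 and Igfbp6, against 12.4% of all windows. GTAAACA matched in 0 of the 14 member windows, against 3.17% of all windows. The GC box matched 4 times in the Igfbp7 window and in 6 of the 14 member windows, against 32.7% of all windows. An E-box stood once in each of the Igfbp1, Igfbp4 and Igfbp5 windows and in 9 of the 14, against 66.2% of all windows. GC content was 53.2% for Igfbp1, 58.8% for Igfbp5, 69.2% for Igfbp4 and 74% for Igfbp7. These matches describe the letters of the windows, since no binding was measured.

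The 9 arrays had median log2 signals of 5.88 to 5.98. As a reference for background, the 95th percentile of 1105 olfactory receptor genes lay between 5.91 and 6.19, and a signal above that of its own array is called above background. Afp, the gene behind the sorting marker, read 5.93, 5.62 and 5.62 on the arrays labelled day 4, below background on all 3, so its transcript goes against the sorting label there. It was 10.54 to 10.68 at day 7 and 12.94 to 13.14 at day 21. Mean signal over 13 mesenchyme and fibroblast markers ran from 7.20 to 7.37 at day 4, 6.61 to 6.77 at day 7 and 8.71 to 9.46 at day 21. Of these markers 11, 11 and 13 were above background on average at the 3 days. The matrix genes Dcn and Lum were below it on all 6 arrays of days 4 and 7 and above it on all 3 arrays of day 21. Other matrix genes of the list went the other way. Col1a1 and Col1a2 were above background on all 9 arrays, and Col3a1 and Postn on all 3 arrays of day 4 and 2 of day 7. The list did not move as one. From day 4 to day 21, 6 of its genes rose and 2 fell (Twist1 by 1.24 and Tagln by 0.74 on the log2 scale). Another 5 did not pass, among them Pdgfrb and Thy1, and of all genes 15% rose and 14.1% fell. Mean signal over 11 visceral and yolk sac endoderm markers ran from 6.63 to 6.86 at day 4, 9.70 to 9.77 at day 7 and 8.70 to 8.74 at day 21. Over 10 hepatoblast and fetal liver markers it ran from 5.95 to 5.996 at day 4, 7.69 to 7.74 at day 7 and 9.72 to 9.94 at day 21. The hepatoblast list includes Afp, so its means and counts partly restate the gene behind the sorting marker. It also shares Ttr with the visceral endoderm list. The part of these cell types' transcripts in the results below was not tested. In bulk samples, fewer cells of a type and less RNA per cell cannot be told apart.

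Between days 4 and 7, Igfbp5, Igfbp6 and Igf2 rose while Igfbp3, Igfbp4 and Igf1r fell. Between days 7 and 21 none of the 10 fell and 8 rose, with the largest rises for Igfbp7, Igfbp1 and Igfbp5. At the first step 6 of the 10 members were called, 3 in each direction, by limma at an adjusted p under 0.05, against 13.4% of all genes (6.98% higher and 6.47% lower). At the second step 8 of 10 were called, all higher, against 23% of all genes called (12.4% higher and 10.7% lower). From day 4 to day 21 the count was again 8, all higher, against 29.1% called (15% higher and 14.1% lower). The 3 arrays of a day lay apart from the 3 of the other day for 7, 8 and 8 members in these comparisons, against 29.9%, 35.5% and 40.4% of all genes. A change of at least 2-fold that was also called was seen for 3, 6 and 4 members, against 3.41%, 6.45% and 8.01% of all genes. The median log2 change of the members was 0.22 between days 4 and 7, 1.26 between days 7 and 21 and 0.90 between days 4 and 21, where all genes had medians of -0.01, -0.03 and -0.03. The first and second comparisons share the day 7 arrays, so an error in those arrays would push their changes in opposite directions.

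**Figure D1:**
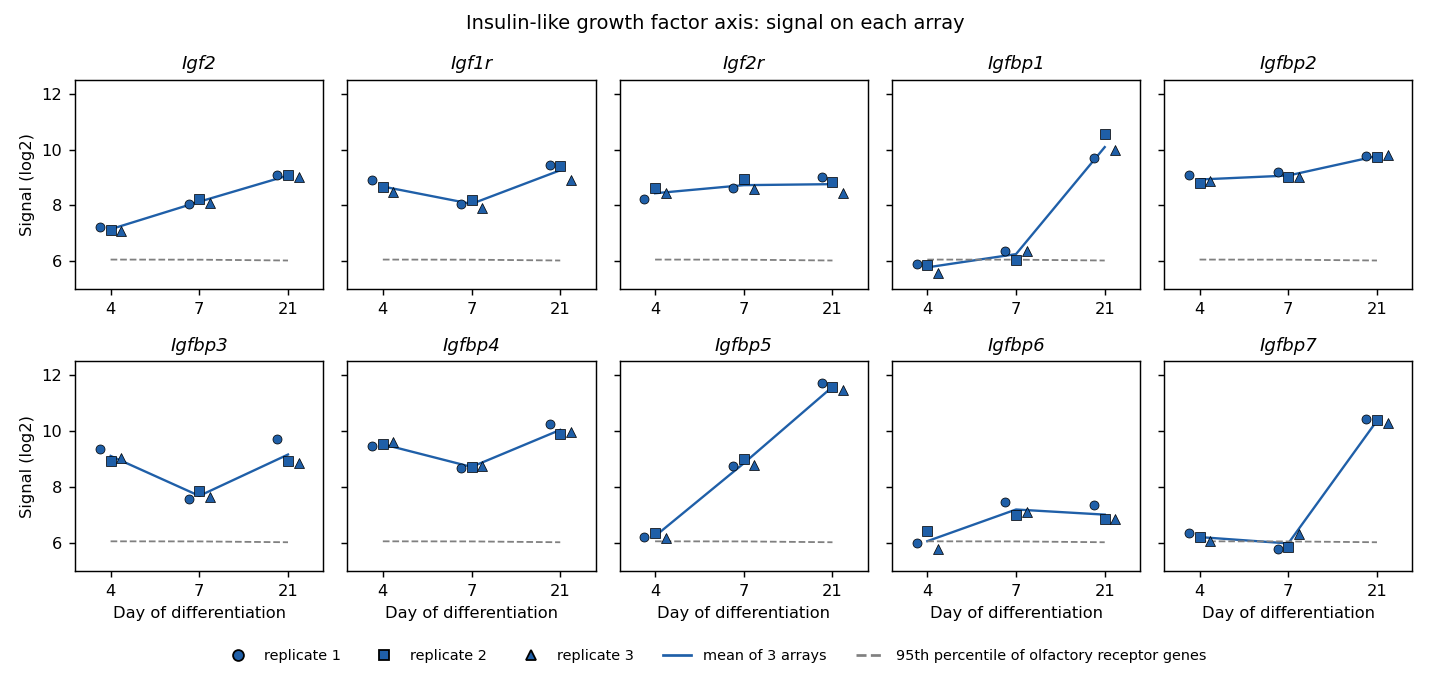
Log2 signal of the 10 members (vertical axis) on the 3 arrays of each day of differentiation (horizontal axis, categories), with a line through the means of 3 arrays and a dashed line at the mean 95th percentile of olfactory receptor genes. Igf2 and Igfbp5 stepped up at both intervals, Igf1r, Igfbp3 and Igfbp4 were lowest at day 7, and Igfbp1 and Igfbp7 stood near the dashed line until day 7 and between 9.70 and 10.57 at day 21.

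Igf2, the only ligand among the members (probe set 17498142), rose at each step. Its log2 signal was 7.23, 7.13 and 7.09 at day 4, 8.07, 8.24 and 8.09 at day 7, and 9.10, 9.07 and 9.03 at day 21. Every array of a later day was above every array of an earlier one, and the widest spread within a day was an SD of 0.09 (n = 3). The rise was 0.99 ± 0.09 (SE) on the log2 scale in the first interval and 0.94 ± 0.09 in the second, 3.79-fold from day 4 to day 21. Adjusted p-values by limma were 4.84e-05, 3.97e-05 and 1.89e-07 for days 7 against 4, 21 against 7 and 21 against 4.

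A microRNA gene, Mir483, lies inside the Igf2 gene in the RefSeq table, on the same strand, and has a probe set of its own (17498158). It was chosen after its values were seen, and its mature sequences are given to identify it, with the seed (bases 2 to 8) in capitals.
mmu-miR-483-5p: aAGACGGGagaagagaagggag
mmu-miR-483-3p: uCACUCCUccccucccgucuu
The 2 arms have different seeds. The probe set read 9.25, 9.16 and 8.96 at day 4, 8.77, 9.55 and 9.26 at day 7, and 8.995, 9.14 and 9.46 at day 21. These groups overlapped throughout. From day 4 to day 21 the change was 0.07 on the log2 scale with a 95% interval from -0.35 to 0.50 (limma adjusted p = 0.830), where that of Igf2 ran from 1.72 to 2.13. An array of this kind does not tell a mature microRNA from its precursor.

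Igf1r, the gene of the signalling receptor (17479099), was lowest at day 7. Its signals were 8.89, 8.67 and 8.47 at day 4, 8.04, 8.21 and 7.91 at day 7, and 9.43, 9.42 and 8.93 at day 21. No 2 days overlapped, although the lowest day 21 array was only slightly above the highest day 4 array. It changed by -0.62 ± 0.16 (SE) by day 7 (limma adjusted p = 0.0288) and by 1.20 ± 0.16 from there to day 21 (3.41e-04), a 2.30-fold rise. The net change from day 4 was 0.58 ± 0.16 (limma adjusted p = 0.0203).

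The first and the net change of Igf1r each depended on single arrays. The first was -0.51 without replicate 1 of day 4 (limma adjusted p = 0.110), -0.62 without replicate 2 of day 4 (0.0804), -0.61 without replicate 1 of day 7 (0.0851) and -0.55 without replicate 3 of day 7 (0.106). The net change was 0.50 without replicate 1 of day 21 (limma adjusted p = 0.0753), 0.50 without replicate 2 of day 21 (0.0761), 0.58 without replicate 2 of day 4 (0.0563) and 0.48 without replicate 3 of day 4 (0.0837). Its rise from day 7 to day 21 was called whichever array was left out, at 1.12 to 1.37.

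Igf2r, the gene of the clearance receptor (17340845), did not pass in any comparison. It read 8.22, 8.64 and 8.46 at day 4, 8.64, 8.94 and 8.60 at day 7, and 9.003, 8.84 and 8.45 at day 21. All 3 days overlapped. The log2 change from day 4 to day 21 was 0.33 with a 95% interval from -0.04 to 0.69 (limma adjusted p = 0.185), and without replicate 3 of day 21 it was 0.48 and passed (0.0438). Between days 7 and 21 the change was 0.04, with an interval from -0.33 to 0.40, and its sign turned when any of 4 arrays was left out.

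Airn, the long non-coding RNA that is transcribed antisense to Igf2r on the paternal allele, rose early. It read 5.27, 5.62 and 5.61 at day 4, all below background, and 7.07, 7.06 and 6.87 at day 7. The day 21 arrays, at 7.21, 7.44 and 6.97, overlapped those of day 7. Its log2 change was 1.499 ± 0.14 (SE) in the first interval (limma adjusted p = 5.56e-05), at least 1.915-fold against background, and 0.21 ± 0.14 in the second. The sources used here do not state how the labelling treats strand, so signal from the overlapping genes cannot be told apart with certainty.

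**Figure D2:**
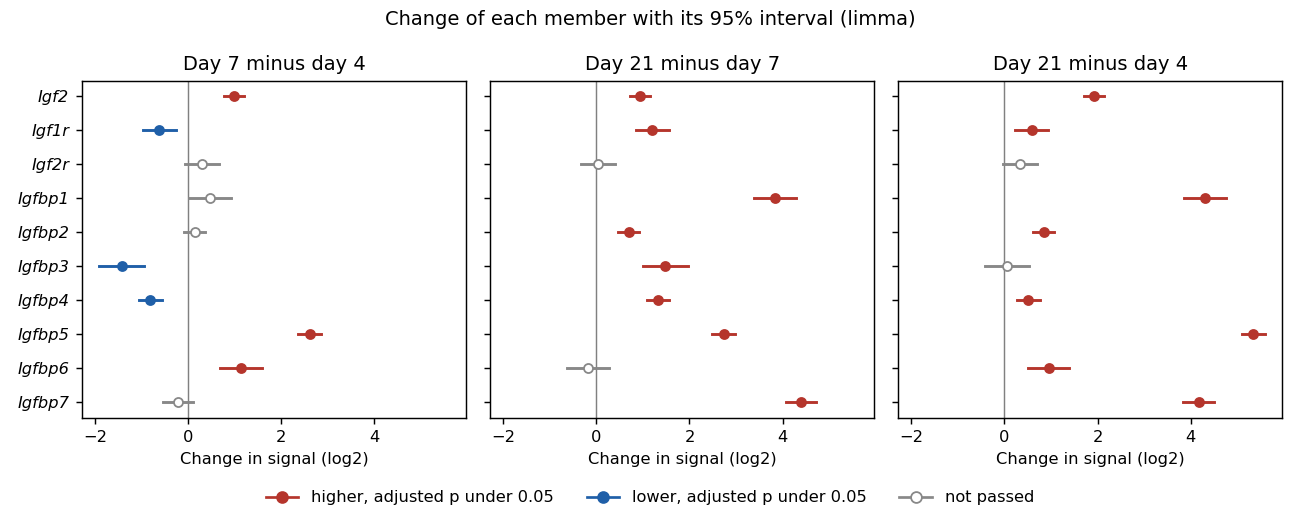
Log2 change of each member (points) with its 95% interval (bars) by limma in the 3 comparisons, filled where the adjusted p was under 0.05. The intervals of Igfbp1, Igfbp5 and Igfbp7 for day 21 minus day 4 lie at or above 3.84, and those of Igf2r include 0 in each comparison.

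Among the binding proteins, Igfbp5 (17224180) rose in both intervals and had the largest net change of the 10 members. IGFBP5 binds extracellular matrix as well as IGFs. Its signals were 6.22, 6.35 and 6.17 at day 4, slightly above background on all 3 arrays, 8.76, 9.01 and 8.80 at day 7, and 11.72, 11.59 and 11.47 at day 21. The days were separated by more than 2 log2 units. The first step was 2.61 ± 0.11 (SE) on the log2 scale and the second 2.74 ± 0.11, 40.7-fold from day 4 to day 21 (limma adjusted p = 7.88e-10). In the first interval the mean level of the mesenchyme markers was lower at day 7, and in the second it was higher at day 21. Of the visceral endoderm markers 10 of 11 rose in the first interval and 10 of 11 fell in the second. Of the hepatoblast markers 6 of 10 and then 7 of 10 rose. Of all genes 6.98% rose in the first interval, and in the second 12.4% rose and 10.7% fell. Since its day 4 signal is close to background, the fold of Igfbp5 from that day is a ratio to a floor.

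Igfbp1 and Igfbp7 were near background until day 7 and high at day 21. Igfbp1 (17247208), whose protein is secreted by liver and is lowered by insulin, read 5.90, 5.87 and 5.58 at day 4, all below background. At day 7 it read 6.36, 6.05 and 6.36, just above it, with replicates 1 and 3 at the same value, and at day 21 it read 9.70, 10.57 and 9.999. The 3 day 21 arrays were thus far above the other 6, with the widest spread within a day at that point (SD 0.44). Its log2 change was 0.47 ± 0.20 (SE) in the first interval, which did not pass (limma adjusted p = 0.176), and 3.83 ± 0.20 in the second (4.08e-07). Against the background level of day 4, Igfbp1 was at least 16.3-fold higher at day 21. The mean of 10 hepatoblast and fetal liver markers was 9.74, 9.94 and 9.72 on the 3 day 21 arrays and ran from 7.69 to 7.74 at day 7. At day 21 Igfbp1 and this mean were both highest on replicate 2. Igfbp1 was lowest on replicate 1, though, and the mean on replicate 3.

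Igfbp7 (17449084), which encodes a secreted protein of endothelial and stromal matrix, read 6.36, 6.21 and 6.08 at day 4 and 5.77, 5.87 and 6.32 at day 7. At day 21 it read 10.45, 10.40 and 10.29. Days 4 and 7 overlapped and day 21 stood apart. The rise from day 7 was 4.39 ± 0.15 (SE) on the log2 scale (limma adjusted p = 2.35e-08), or at least 19.4-fold where arrays under background are set to it. Of 8 endothelial markers 3 were above background at each of the 3 days, and their mean ran from 5.39 to 5.63 at day 21, below the 5.996 to 6.13 of day 7. Of the mesenchyme markers 10 of 13 rose between days 7 and 21, when Igfbp7 rose, and of the hepatoblast markers 7 of 10. Of all genes 12.4% rose in that interval.

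Igfbp3 and Igfbp4 fell by day 7 and rose by day 21. Igfbp3 (17260474), the main carrier of IGFs in serum, read 9.37, 8.93 and 9.06 at day 4, 7.56, 7.87 and 7.64 at day 7, and 9.72, 8.93 and 8.86 at day 21. The day 7 arrays were below all 6 others, and days 4 and 21 overlapped. Its log2 change was -1.43 ± 0.22 (SE) in the first interval (limma adjusted p = 0.00122) and 1.48 ± 0.22 in the second (5.66e-04). Between days 4 and 21 the difference was 0.05, with a 95% interval from -0.43 to 0.53, and turned to -0.22 without replicate 1 of day 21 and to -0.046 without replicate 2 of day 4. That day 21 array was the highest of its day for Igfbp3 and also for the mean of the mesenchyme markers (9.46, against 8.99 and 8.71).

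Igfbp4 (17256264), a target of the protease encoded by Pappa, read 9.46, 9.55 and 9.60 at day 4, 8.69, 8.73 and 8.75 at day 7, and 10.26, 9.91 and 9.98 at day 21. The 3 days did not overlap. The changes were -0.81 ± 0.11 (SE) by day 7 (limma adjusted p = 5.70e-04), 1.33 ± 0.11 from day 7 to day 21 (1.09e-05) and 0.51 ± 0.11 net (0.00459). Of the 13 mesenchyme markers 5 fell and 0 rose between days 4 and 7, where 6.47% of all genes fell. Between days 7 and 21, 10 rose and 0 fell, where 12.4% of all genes rose. The markers called in each interval thus moved in the same direction as Igfbp3 and Igfbp4, but they were partly different genes. Tagln fell first and did not pass after day 7 (0.15, limma adjusted p = 0.720). Col1a1, Col1a2, Col3a1, Dcn, Lum and Postn rose after day 7 but were not called before it. The part of mesenchyme transcripts in these changes was not tested. Replicate 1 of day 21 had the highest value of the day for 8 of the 10 members and 11 of the 13 mesenchyme markers. The share over all genes was not counted. Its median signal over all probe sets was 5.91, where replicates 2 and 3 of that day had 5.92 and 5.98. An offset of the whole replicate 1 array was not tested. Without that array the change of Igfbp3 from day 7 was 1.21 and that of Igfbp4 1.22.

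Igfbp2 changed after day 7 and Igfbp6 before it. Igfbp2 (17214106), a binding protein abundant in fetal tissues, read 9.08, 8.82 and 8.89 at day 4, 9.18, 9.02 and 9.01 at day 7, and 9.79, 9.72 and 9.80 at day 21. Days 4 and 7 overlapped and day 21 was above both. The rise from day 7 was 0.70 ± 0.10 (SE) on the log2 scale (limma adjusted p = 5.88e-04), or 1.62-fold, and the first change of 0.14, with a 95% interval from -0.08 to 0.37, did not pass.

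Igfbp6 (17315305), whose protein prefers IGF2 over IGF1, read 6.002, 6.43 and 5.77 at day 4, with 1 array above background, and 7.49, 6.99 and 7.13 at day 7. At day 21 it read 7.35, 6.86 and 6.84, overlapping day 7. It rose by 1.13 ± 0.20 (SE) in the first interval (limma adjusted p = 0.00330). The change after day 7 was -0.18, with a 95% interval from -0.63 to 0.26.

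Neighbouring genes of the family differed in their course. Igfbp1 and Igfbp3 are adjacent on chromosome 11, with 0 protein-coding genes between them in the RefSeq table, as are Igfbp2 and Igfbp5 on chromosome 1. From day 4 to day 21 the 95% interval of the log2 change was 3.86 to 4.75 for Igfbp1 and -0.43 to 0.53 for Igfbp3. For Igfbp5 it was 5.10 to 5.59 and for Igfbp2 0.61 to 1.07. The closest courses among the 45 pairs of members were those of Igf1r and Igfbp4, with a root mean square difference of 0.22 log2 units over the 9 arrays after centring each gene on its mean, followed by Igfbp3 and Igfbp4 at 0.34.

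By the same measure over 11972 protein-coding genes above background on at least 1 day, the courses most like Igf2 were those of Lama5, a laminin chain of epithelial basement membranes (0.06), and Egr1, an immediate early transcription factor (0.11). Nearest to Igfbp1 were Cdh17, an intestinal cadherin (0.20), and Cd14, a lipopolysaccharide co-receptor (0.24). Igfbp7 lay nearest to Cpt1a, which admits fatty acids to mitochondria (0.16), and Sema3c, a semaphorin (0.19). Nearest to Igfbp5 were Ambp, the precursor of alpha-1-microglobulin (0.35), and S100g, a calcium-binding protein (0.49). For Igfbp3 they were Oxct1, a ketone-using enzyme (0.22), and Mmp2, a matrix metalloproteinase (0.25). Igfbp4 was closest to Il6st, a shared cytokine receptor (0.07), and Lrp4 (0.11), and Igf1r to Sh3bgrl (0.11) and Tm7sf3 (0.13). Genes nearest to the remaining members were Crip1 (0.06) and Pccb (0.08) for Igfbp2, Osbpl6 (0.18) and Grtp1 (0.19) for Igfbp6, and Stx5a (0.10) and Uhrf1bp1l (0.11) for Igf2r. Likeness here describes 9 arrays that fall into 3 days. The measure is not scaled to the size of a change, so small values come more easily to genes with small changes.

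Proteases and inhibitors that act on IGF-binding proteins included several that were lowest at day 7. Of 13 listed genes, 2 rose, 4 fell and 7 did not pass between days 4 and 7, or 46.2% called against 13.4% of all genes. Between days 7 and 21, 9 rose, 1 fell and 3 did not pass, or 76.9% against 23%, with a median log2 change of 0.89. Htra1, a secreted serine protease that cleaves IGFBPs, read 8.28, 8.28 and 8.83 at day 4, 6.08, 5.60 and 6.30 at day 7, and 8.40, 8.05 and 8.02 at day 21. Its day 7 arrays were below all others. The changes were -2.47 ± 0.21 (SE) and 2.16 ± 0.21 (limma adjusted p = 2.12e-05 and 3.04e-05). Adam9, a membrane metalloprotease, changed by -1.64 ± 0.12 and then 0.996 ± 0.12.

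Pappa, whose product cleaves IGFBP4 and so releases IGF, changed by -1.30 ± 0.22 (SE) by day 7 (limma adjusted p = 0.00267), and its later change of 0.58 ± 0.22 did not pass. Mmp2 changed by -1.10 ± 0.24 (limma adjusted p = 0.0125), a call lost without replicate 3 of day 4 (-1.05, 0.0518) or replicate 3 of day 7 (-1.003, 0.0539), and then rose by 1.32 ± 0.24. Pappa2, a related protease, was called higher at day 21 than at day 7, but only 1 of the 6 arrays was above background, so no fold is given. Mmp7, matrilysin, rose in the same interval from below background on all 3 arrays to 6.62, at least 1.47-fold against background (limma adjusted p = 9.23e-06). Stc2, stanniocalcin 2, an inhibitor of the Pappa protease, rose by 0.93 in the first interval and was lower by 0.54 in the second, where it was the gene of the list that fell.

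**Figure D3:**
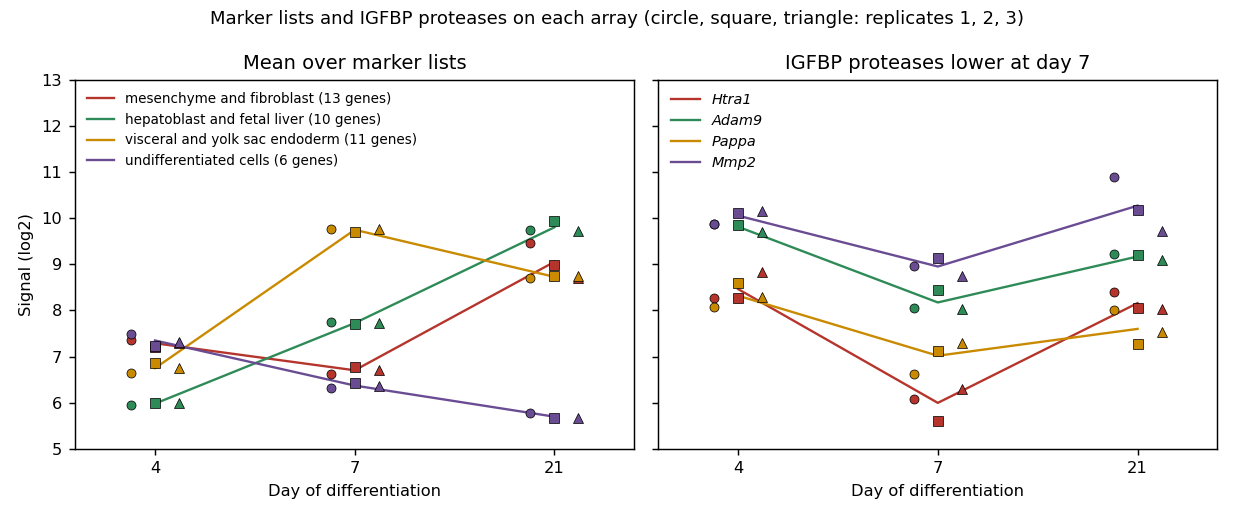
Left, mean log2 signal over 4 marker lists on each array; right, log2 signal of 4 genes for proteases of IGF-binding proteins, in both against day of differentiation (categories), with lines through the means of 3 arrays. The mesenchyme list has its lowest mean at day 7, and the hepatoblast list is highest at day 21 (9.72 to 9.94). The 4 proteases were plotted because they are the genes of their list called lower at day 7 than at day 4. Their fall was thus fixed by the choice, and 2 of the 13 listed genes rose in that interval. All 4 had a higher mean at day 21 than at day 7.

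Of the other insulin-family genes, 7 of 8 were measured: 1 rose between days 4 and 7, 2 rose between days 7 and 21, and none fell. These shares, 14.3% and 28.6%, are near the 13.4% and 23% of all genes. Igf1, the second IGF ligand, read 5.56 to 5.88 on the 6 arrays of days 4 and 7 and 7.47, 6.81 and 6.66 at day 21, a log2 rise of 1.20 ± 0.19 (SE) from day 7 (limma adjusted p = 9.13e-04), or at least 1.90-fold against background. Ghr, the growth hormone receptor, rose by 1.43 ± 0.17 in the same interval (limma adjusted p = 1.32e-04). Insr, the insulin receptor, which also binds IGF2, rose by 0.68 ± 0.11 from day 4 to day 21 (limma adjusted p = 0.00105). Its first step of 0.43 lost its call without any of the 3 arrays of day 4 or without replicate 1 or 2 of day 7 (0.35 to 0.47, limma adjusted p up to 0.108). Ins2, Insrr, Igfals and Igfbpl1 had day means below background throughout.

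Signalling genes downstream of the receptors were mostly not called at either step. Of 25 measured, 3 rose, 3 fell and 19 did not pass between days 4 and 7, and 4 rose, 2 fell and 19 did not pass between days 7 and 21, 24% called each time against 13.4% and 23% of all genes. From day 4 to day 21, 8 rose, 4 fell and 13 did not pass, or 48% called against 29.1% of all genes. Of the adaptor genes, Irs4 and Irs1 diverged between days 7 and 21, and Irs2 did not pass there (0.17, limma adjusted p = 0.392). Irs4 read 7.16, 7.35 and 7.52 at day 4, 8.38, 8.23 and 8.05 at day 7, and 5.54, 6.11 and 5.77 at day 21, a change of -2.41 ± 0.16 (SE) in the second interval (limma adjusted p = 2.07e-06). Irs1, by contrast, rose by 1.18 ± 0.16 over the same interval (limma adjusted p = 2.94e-04). Pik3cb, a catalytic subunit of phosphoinositide 3-kinase, rose by 1.53 ± 0.12 and then changed by -1.05 ± 0.12, while the regulatory subunit gene Pik3r1 rose by 1.05 ± 0.15 in the second interval. Socs2, a feedback inhibitor of growth hormone signalling, changed by -1.93 ± 0.27 by day 7 (limma adjusted p = 8.35e-04).

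Among 13 genes of the mannose 6-phosphate pathway, in which Igf2r acts as a sorting receptor, 3 rose, none fell and 10 did not pass between days 4 and 7, or 23.1% called against 13.4% of all genes. Between days 7 and 21 none rose, 5 fell and 8 did not pass, or 38.5% against 23%, with a median log2 change of -0.24. Gnptab, which makes the mannose 6-phosphate tag, rose by 0.67 ± 0.14 (SE) and then changed by -0.82 ± 0.14. Tgfb1, a latent growth factor that binds the receptor, changed by -0.98 ± 0.09 in the second interval (limma adjusted p = 3.12e-05), as did Vps26a (-0.88) and Vps35 (-0.70) of the retromer complex. M6pr, the other mannose 6-phosphate receptor, had means of 10.17, 10.17 and 9.98 at the 3 days and did not pass in any comparison.

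Imprinted growth genes, of which Igf2 and Igf2r are themselves examples, were next compared. Of 10 measured, 6 rose, none fell and 4 did not pass between days 4 and 7, and 3 fell, none rose and 7 did not pass between days 7 and 21. The shares called were 60% against 13.4% of all genes and then 30%, near the 23% of all genes. Cdkn1c, a cell cycle inhibitor, read 6.94 to 7.37 at day 4, 7.99 to 8.15 at day 7 and 7.97 to 8.09 at day 21, a first-interval rise of 0.98 ± 0.12 (SE, limma adjusted p = 3.61e-04). Dlk1 rose most of the 10 in that interval, by 1.91 ± 0.15, and Peg3, a zinc finger gene, by 0.85 ± 0.09. Neither Cdkn1c nor Peg3 passed after day 7, where Igf2 rose by 0.94. Plagl1, an imprinted gene counted in another list, rose by 3.73 after day 7. Phlda2, a growth-restricting gene, changed by -2.04 ± 0.16 and Mest by -1.17 ± 0.16 between days 7 and 21.

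Of 13 matrix and cell-surface partners of IGF-binding proteins measured, 1 rose, 1 fell and 11 did not pass in the first interval, or 15.4%, near the 13.4% of all genes. In the second 6 rose, 1 fell and 6 did not pass, or 53.8% against 23%. Vtn, vitronectin, which binds IGFBP5 and IGF2, read 6.08, 5.99 and 5.87 at day 4, 7.09 on each day 7 array, and 11.07, 11.26 and 11.15 at day 21. The rise from day 7 was 4.07 ± 0.10 (SE, limma adjusted p = 2.83e-09), and the 3 equal values at day 7 make the spread of that day 0. Ccn1 and Ccn2, matrix-associated proteins with an IGFBP-like domain, rose by 1.72 ± 0.13 and 1.25 ± 0.15. Itga5, an integrin subunit that IGFBP1 binds, changed by -1.21 ± 0.11, and Fn1, fibronectin, by -1.02 ± 0.11 in the first interval.

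**Figure D4:**
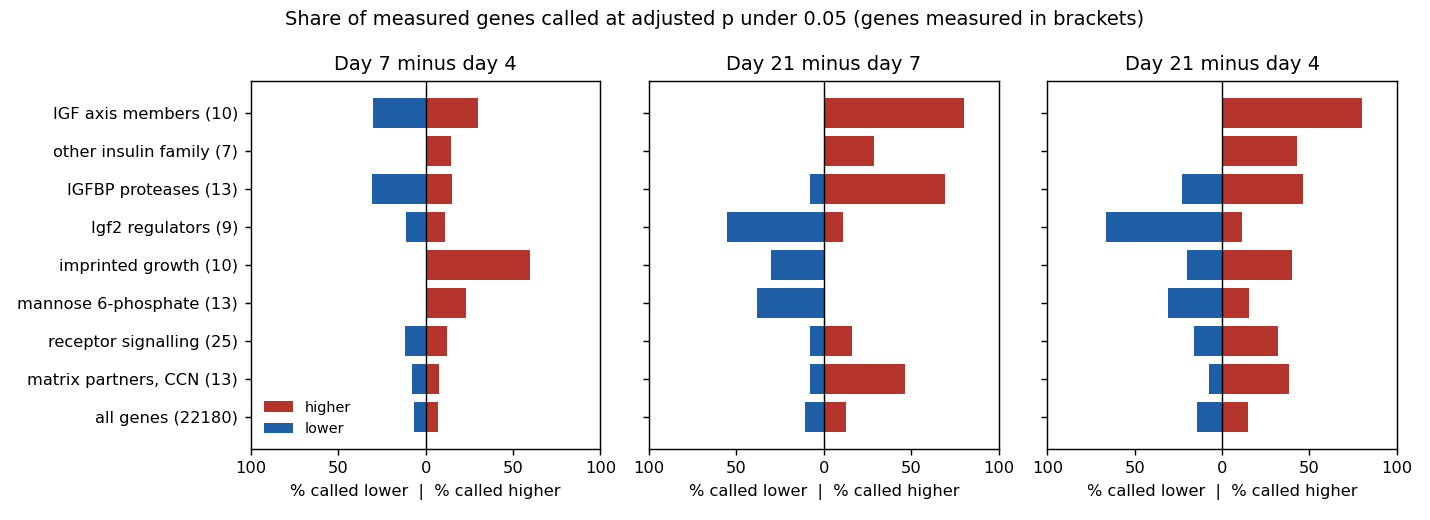
Percent of measured genes called higher (right) or lower (left) by limma at an adjusted p under 0.05 in each comparison, for the IGF axis members, 7 lists of related genes and all 22180 genes. Members were called higher in 80% of cases for day 21 against either earlier day, where 12.4% and 15% of all genes were.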

How the data were processed

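Each of the 9 samples was run on 1 array. Per the labels' protocols, labelling used a kit for very small RNA inputs, which amplifies RNA and can distort ratios of dim transcripts. The authors deposited 1 log2 value for each probe set, and the submitters' processing notes name Affymetrix Expression Console and RMA. RMA corrects background, equalises the arrays and summarises probes, so a shift of all transcripts together is largely removed, and its median polish can leave equal values on several arrays.

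Of 34365 probe sets, 23521 carry 1 gene symbol, 1814 several and 9030 none. The brightest single-symbol probe set was kept per gene, leaving 22180 genes, 21994 of them matched by Entrez number to RefSeq. With limma 3.58.1 (lmFit and eBayes, run in R 4.3.3), all 9 arrays entered 1 model with a mean for each day (two-sided; Benjamini-Hochberg over all genes; called at an adjusted p under 0.05). SE and 95% intervals come from this fit. The labels do not say that arrays of a day are separate cultures, so p-values reflect only how far these arrays differ within a day, possibly for technical reasons. The fit was tested on simulated data. Precision is limited by the number of arrays.

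All members are named. From 7 lists of related genes (100 genes, 90 measured), up to 4 called genes with the largest change per comparison could be named, and the 2 nearest genes by root mean square difference per member. Genes of the lists outside that rule (Stc2, M6pr, Igf2bp3, Ins2, Insrr, Igfals and Igfbpl1) and Mir483 were chosen after their values were seen. Members, lists and the background reference were chosen with earlier results of these data known. Genes whose probe sets carry several symbols, and listed genes not measured, are not analysed here. Alternatives were another probe set rule, 2 rescalings, a filter on dim genes, trend and robust eBayes, array weights, only the 2 days compared, a replicate block, stricter calls, and leaving out each array.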

Additional observations from a re-analysis of the deposited data

How the results depend on the processing

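Under all settings other than leaving out an array or a stricter call, each of the 10 members kept its side of the threshold. Direction was kept too, but it could turn only with array weights or the 2 rescalings. The other settings leave the log2 change of a member as it is, since each member has 1 probe set. A minimum of 2-fold cut the members called from 6 to 3 between days 4 and 7 (3.41% of all genes met it) and from 8 to 4 between days 4 and 21 (8.01%), because fewer changes can meet it. With 1 array left out, the count ran from 5 to 6 between days 4 and 7, stayed at 8 between days 7 and 21, and ran from 7 to 9 between days 4 and 21. The calls of Igf1r and Igf2r that changed are given in the report. Signs turned in 6 cases, all of changes that had not passed. Igf2r between days 7 and 21 went to -0.085 without replicate 1 of day 21, to -0.0011 without replicate 2 of day 21, to -0.0091 without replicate 1 of day 7 and to -0.025 without replicate 3 of day 7, with a range up to 0.19 over the 9 arrays. Igfbp3 between days 4 and 21 went to -0.22 without replicate 1 of day 21 and to -0.046 without replicate 2 of day 4, with a range up to 0.21. Related genes called, 26, 39 and 49 in the 3 comparisons, ran from 20 to 29, 36 to 40 and 41 to 47 with 1 array left out. Between days 4 and 7 the call of Insr was also lost with arrays centred on their medians (0.42), and that of Irs4 with the mean of all probe sets (0.55).

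Same-numbered arrays did not deviate together in every pair (correlations of deviations over genes from -0.05 to 0.26, with every day 21 array closest to its own number only against day 7), so numbers were not taken as pairs. With the replicate number as a block the members called were 6, 8 and 8 and the related genes 25, 40 and 46, and no member's call changed. Signals near the olfactory receptor reference limit Igfbp1, Igfbp5 (day 4), Igfbp6 (day 4) and Igfbp7 at the early days, whose folds are ratios to a floor.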

Other observations

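Genes that act on Igf2 expression or on its mRNA moved apart between days 7 and 21. Of 9 measured, 1 rose, 5 fell and 3 did not pass by limma at an adjusted p under 0.05. That is 66.7% called, against 23% of all genes. Plagl1, an imprinted zinc finger gene known to act on the Igf2 and H19 locus, read 7.48, 7.67 and 7.62 at day 4, 7.03, 7.69 and 7.15 at day 7, and 11.15, 10.98 and 10.95 at day 21, with all 3 day 21 arrays far above the other 6. Its rise from day 7 was 3.73 ± 0.16 (SE, limma adjusted p = 1.13e-07). Lin28a, an RNA-binding protein of early embryonic cells, read 10.04, 10.09 and 9.96 at day 7 and 6.92, 6.96 and 6.71 at day 21, a change of -3.17 ± 0.10 (limma adjusted p = 1.91e-08). Lin28b, its relative, changed by -0.99 ± 0.13 and Trim71, a ubiquitin ligase of stem cells, by -1.08 ± 0.14. Igf2bp3, an IGF2 mRNA-binding protein, was 10.31 ± 0.09 (SD, n = 3) at day 7 and 9.84 ± 0.10 at day 21, a log2 change of -0.47 ± 0.10 (SE, limma adjusted p = 0.00500). Between days 4 and 7 only Lin28a rose (0.57 ± 0.10) and only Hmga2, a chromatin protein of embryonic cells, fell (-1.12 ± 0.10) among the 9. The share called was 22.2%, against 13.4% of all genes (6.98% higher and 6.47% lower).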
